A study of Mus musculus with 4 samples.

Results

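The cells described here carried the submitters' type name Tuft but had no entry in the table that divides tuft and enteroendocrine cells into subtypes. They were found by matching cell names: of 1280 cells named Tuft, 106 were absent from the subtype table and 1174 were in it. These 106 left-out cells were part of 13362 cells with a type name and 21140 cells in all. Apart from them, 1 of 1208 enteroendocrine (EEC) cells and 0 of 205 Tuft/EEC.Progenitor cells were absent from that table. What decided the absence is not given in the sources used here. If it was decided on these same counts, the p-values given below are too small.

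All cells came from 4 mice of 1 genotype, Ptf1aCre-ERTM;ROSAYFP/+, in a background the labels call "Backcrossed into CD-1", whose injury began at 10 weeks of age. Tamoxifen switched on Cre in cells that express the acinar factor gene Ptf1a and so marked them with the fluorescent protein EYFP, and caerulein, a secretagogue that causes pancreatitis, was then given for 2 weeks (2 mice) or 4 weeks (2 mice). EYFP-positive cells that excluded the dye DAPI were sorted and their RNA was measured by 10x Genomics 3′ sequencing with unique molecular identifiers (UMIs). No uninjured mouse was analysed here, and the mice are called 2 wk mouse 1, 2 wk mouse 2, 4 wk mouse 1 and 4 wk mouse 2. Left-out cells held 220259, 961933, 557641 and 345770 UMIs in these mice in turn, and subtyped Tuft cells held 1488273, 12423386, 2767723 and 4869717.

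Tuft cells are rare chemosensory cells of epithelia. The transcription factor Pou2f3 specifies them, a taste-type cascade (the G protein subunit gustducin, a phospholipase and the channel Trpm5) senses luminal signals, and they release interleukin 25 and eicosanoids. In the pancreas they are known to appear among metaplastic cells when acinar cells are injured, beside mucous cells that resemble the spasmolytic polypeptide-expressing metaplasia (SPEM) of the stomach.

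The left-out cells carried the defining tuft markers. Pou2f3 was found in 86 of 106 cells (81.1%, 95% exact binomial interval 72.4 to 88.1) and in 93.5% of subtyped cells. Dclk1, a kinase used as the classical tuft marker, was found in 103 of 106 left-out cells (97.2%) and in 95.4% of subtyped cells. Both markers were present in 86 left-out cells (81.1%) and in 1051 of 1174 subtyped cells (89.5%). In B cells of the same libraries (cells with no type name and at least 3 UMIs of B cell genes), which should lack both, Pou2f3 was found in 0.464% and Dclk1 in 1.85% of 647 cells, at a median depth of 3428 UMIs against 17653 in left-out and 18325.5 in subtyped cells. EYFP was found in 106 of 106 left-out cells, as in every Acinar (3698 of 3698), MucinDuctal (3983 of 3983) and EEC cell (1208 of 1208), so its presence was shared by the typed cells and sets none of them apart. The submitters call the counts of the typed cells filtered YFP+. A presence in all of them may therefore have been set by that filter. The median was 7.5 EYFP UMIs in left-out and 8 in subtyped cells, and 13.2% and 3.07% of these cells had only 1 EYFP UMI. Of B cells, 8.5% had an EYFP UMI. The binomial intervals here and below cover counting error only.

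Left-out cells made up 10.8%, 6.62%, 13.2% and 7.81% of Tuft cells in 2 wk mouse 1, 2 wk mouse 2, 4 wk mouse 1 and 4 wk mouse 2, or 9 of 83, 44 of 665, 28 of 212 and 25 of 320 cells. The shares of the 2-week and 4-week mice overlapped. The mean was 8.73% ± 2.99 (SD, n = 2) at 2 weeks and 10.5% ± 3.81 (SD, n = 2) at 4 weeks, with p = 0.667 in a two-sided exact permutation test whose smallest possible p is 0.33. No left-out cell shared its barcode with a cell of another mouse.

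The left-out cells fell into 2 deposited clusters, which differed in the other transcripts they held. Cluster 7, which also held 209 of the 210 Tuft-1 and 434 of the 457 Tuft-2 cells, contained 46 left-out cells. Cluster 10, which held 452 of the 494 Tuft-3 cells, contained the other 60. Left-out cells of both clusters held more transcripts of mucous, SPEM-type cells than subtyped cells, and those of cluster 10 were in addition rich in transcripts of digestive enzymes. Summed transcripts of Reg proteins were above those of subtyped cells in both clusters. Of the subtyped cells, 13 had a subtype name other than Tuft-1, Tuft-2 or Tuft-3 (8 MucinDuctalProgenitor, 2 Ppy+, 2 Delta and 1 EEC-Progenitor), all in cluster 7.

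Depth varied more among left-out cells than among subtyped cells in every mouse but 2 wk mouse 1. The median per cell was 24464, 21309, 18286.5 and 10235 UMIs in left-out cells of 2 wk mouse 1, 2 wk mouse 2, 4 wk mouse 1 and 4 wk mouse 2, against 19183, 20446, 14445 and 16287 in subtyped cells. Left-out cells were therefore deeper in 3 mice and shallower in 4 wk mouse 2, and the mean log2 difference was 0.02 ± 0.48 (SD, n = 4 mice, exact sign-flip permutation p = 0.875, smallest possible 0.13). The SD of log2 UMIs between cells was 1.52 in left-out and 0.58 in subtyped cells over all mice. It was 0.399, 1.7, 1.26 and 1.53 in left-out cells of the 4 mice in turn and 0.442, 0.558, 0.554 and 0.571 in subtyped cells. Under 5000 UMIs lay 20 of 106 left-out cells (18.9%) and 9 of 1174 subtyped cells (0.767%), and over 30000 UMIs lay 21 (19.8%) and 44 (3.75%). Cluster 7 supplied 17 of the 21 deep cells and cluster 10 supplied 18 of the 20 shallow ones.

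Within cluster 7 the left-out cells were deeper than subtyped cells in 4 of 4 mice, with medians over all mice of 25858.5 and 19321.5 UMIs and a mean log2 difference of 0.46 ± 0.24 (SD, n = 4 mice, exact sign-flip permutation p = 0.13, the smallest possible). Within cluster 10 the medians over all mice were 10960.5 and 16959.5 UMIs, but the left-out cells were deeper in 2 mice and shallower in 2, and the mean difference was -0.29 ± 0.74 (SD, n = 4 mice, exact sign-flip permutation p = 0.625). The comparisons within clusters were chosen after the data had been seen.

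**Figure D1:**
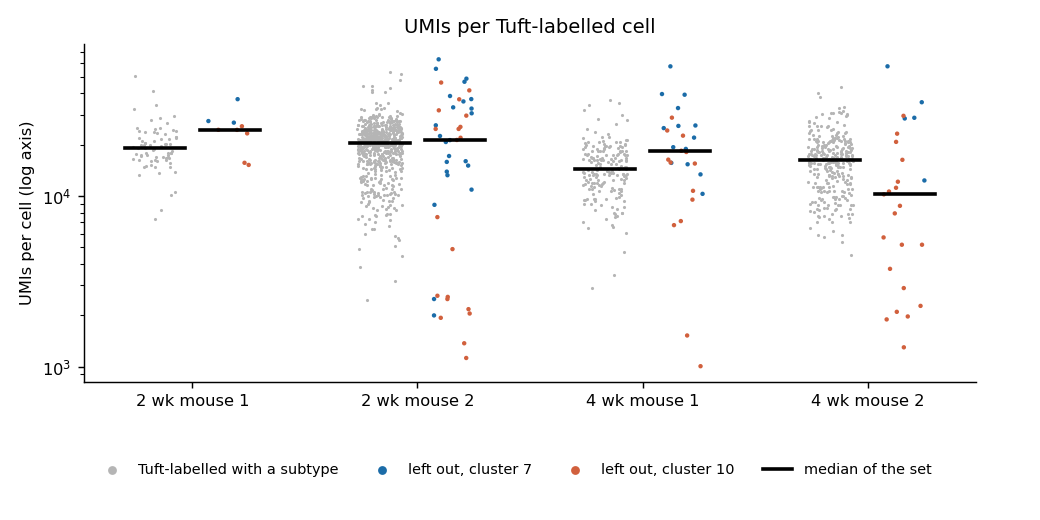
UMIs per cell (log axis) of Tuft-labelled cells in each of the 4 mice, with subtyped cells in grey, left-out cells coloured by deposited cluster and bars at the medians. Left-out cells spread from 1006 to 63350 UMIs, the deep ones mostly from cluster 7 and the shallow ones mostly from cluster 10.

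At an equal depth of 1000 UMIs per cell, left-out cells showed a median of 650, 642, 632.5 and 630 genes in the 4 mice in turn and subtyped cells 662, 656, 665 and 666. Left-out cells were lower in 4 of 4 mice, by 23.6 ± 12.4 genes (SD, n = 4 mice, exact sign-flip permutation p = 0.13, the smallest possible). At 3000 UMIs the difference was 0 in 2 wk mouse 2 and below 0 in the other mice, with a mean of -16.8 ± 15 genes (SD, n = 4 mice, exact sign-flip permutation p = 0.25). That depth dropped 18 of 106 left-out cells, 10 of them from 2 wk mouse 2, and 2 of 1174 subtyped cells. The 2 depths therefore compare different sets of left-out cells. The clusters differed: at 1000 UMIs left-out cells of cluster 7 showed 686, 665.5, 653 and 644 genes against 653, 648.5, 651 and 647 in subtyped cells and were higher in 3 mice, while those of cluster 10 showed 640.5, 628.5, 619.5 and 627.5 against 665.5, 669, 673 and 676.5 and were lower in all 4. Mitochondrial genes took a median of 2.85% of UMIs in left-out and 2.56% in subtyped cells, and the mean difference within mice was 0.24 ± 0.24 percentage points (SD, n = 4, exact sign-flip permutation p = 0.25).

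Across all genes, UMIs were summed per mouse and set, and mice with at least 10 cells in each set entered the test, which left out 2 wk mouse 1 with its 9 left-out cells. Of 10225 genes tested, 362 were higher (3.54%) and 231 lower (2.26%) in left-out than in subtyped Tuft cells at an adjusted p under 0.05 (edgeR quasi-likelihood test with mouse as a block, 3 mice). Each mouse weighed on these counts: 305 genes were called without 2 wk mouse 2, 176 (153 higher and 23 lower) without 4 wk mouse 1 and 990 without 4 wk mouse 2, against 593 with all 3. DESeq2 called 220 higher and 50 lower, and equal thinning of every cell to 1000 UMIs left 55 higher and 12 lower among 2280 genes that could be tested.

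The genes that differed sorted by the cell type in which they are highest. Levels are given as CPM, the UMIs of a gene or list per 1000000 UMIs of that mouse and set. The type with the highest mean CPM was found for each gene over the 8 deposited types, left-out cells aside. Of the 231 lower genes, 207 (89.6%) were highest in Tuft cells, against 27.3% of all genes tested. None of the 362 higher genes was highest in Tuft cells, while 130 (35.9%) were highest in MucinDuctal cells, against 7.78% of all genes tested, 86 (23.8%) in Ductal-like cells, against 18.6%, and 72 in Acinar or Acinar.Prolif cells, against 338 of all genes tested. Within cluster 7, 120 of 233 higher genes (51.5%) were highest in MucinDuctal cells, against 8% of all genes tested there, 4 (1.72%) in Acinar cells, against 0.475%, and 11 (4.72%) in Acinar.Prolif cells, against 2.5%. Within cluster 10, 21 of 136 higher genes (15.4%) were highest in MucinDuctal cells, against 7.24% of all genes tested there, 32 (23.5%) in Acinar cells, against 0.657%, and 32 (23.5%) in Acinar.Prolif cells, against 2.67%. These shares are descriptions of the called genes and carry no test. The Tuft level in them is that of the subtyped cells, which are also 1 side of the contrast. A gene high in those cells is favoured both to be called lower and to be highest in Tuft cells. The Tuft shares are therefore partly built in.

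**Figure D2:**
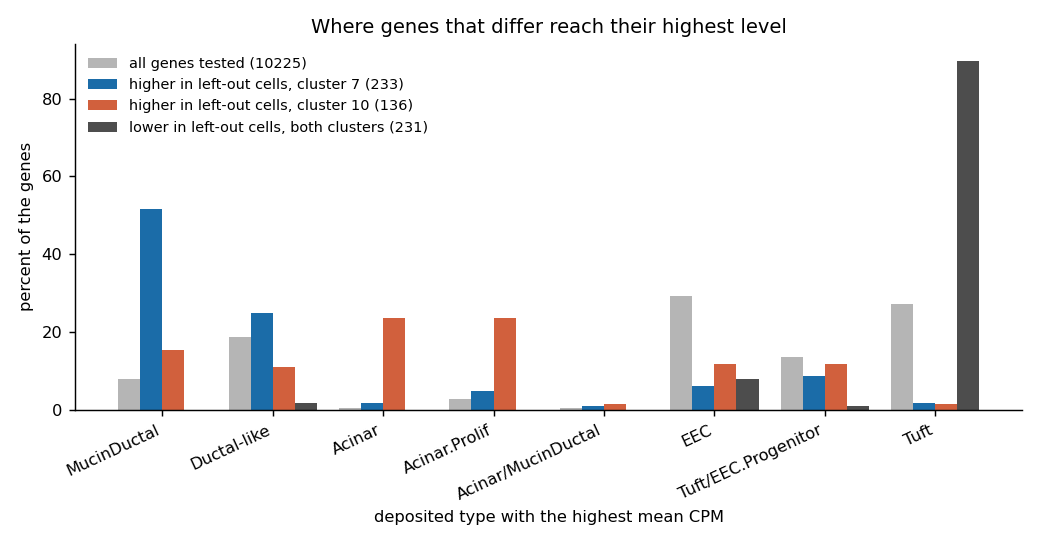
Percent of genes by the deposited cell type in which their mean CPM is highest, for all genes tested, for genes higher in left-out cells of cluster 7 and of cluster 10, and for genes lower in left-out cells. MucinDuctal leads among the genes higher in cluster 7 (51.5%), Acinar and Acinar.Prolif (23.5% each) among those higher in cluster 10, and Tuft (89.6%) among the lower genes. The Tuft level is that of the subtyped cells, so the Tuft shares are partly built in.

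Digestive enzymes and their cofactors, the products of acinar cells, were higher in left-out cells: of 28 listed genes 25 were tested, 18 were higher and 0 lower, against 3.54% and 2.26% of all genes, with a median log2 difference of 2.83 against -0.01 over all genes. The summed enzyme level was 54926, 39661, 53981 and 49591 CPM in left-out cells of the 4 mice in turn and 14747, 4993, 6849 and 8725 CPM in subtyped cells, and the sets did not overlap. Prss2, a trypsinogen, stood at 3015, 1576, 2139 and 2878 CPM in left-out and 493, 208, 219 and 430 CPM in subtyped cells (log2 difference 3.02 ± 0.10 SE, edgeR adjusted p = 8.97e-17). Cela1, an elastase, stood at 1471, 439, 1275 and 1125 CPM against 278, 62.2, 155 and 164 CPM (2.92 ± 0.10 SE, edgeR adjusted p = 5.74e-17). In every mouse left-out cells held several times more of either transcript. The carboxypeptidase Cpa1 differed by 3.24 ± 0.09 (SE) on the log2 scale with an edgeR adjusted p of 7.59e-19. The abundant chymotrypsinogen Ctrb1 (log2 difference 2.66, edgeR adjusted p = 0.0593) and the colipase Clps (3.47, edgeR adjusted p = 0.152) did not pass.

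The enzyme excess was larger in cluster 10. There the enzyme list reached 86895, 95380, 102807 and 87551 CPM in left-out cells of the 4 mice in turn and 11955, 4112, 5414 and 8638 CPM in subtyped cells, a log2 ratio of 3.75 ± 0.78 (SD, n = 4 mice). In cluster 7 it stood at 9916, 10117, 27407 and 6917 CPM against 16750, 5331, 8588 and 8829 CPM, and left-out cells were higher in 2 mice and lower in 2, although their median of enzyme UMIs per cell was higher in 4 of 4 mice. Of the 25 enzyme genes tested in cluster 10, 19 were higher (edgeR, 4 mice, where 2.03% of 6701 genes were higher and 0.955% lower), and their fitted log2 differences lay between 3.23 and 4.27. In cluster 7, 2 of 24 were higher (Cela1 at 1.69 and the lipase-related Pnliprp2 at 1.99), where 2.7% of 8640 genes were higher and 1.41% lower (edgeR, 3 mice). The difference was larger in cluster 10 than in cluster 7 for 17 of 25 enzyme genes (edgeR interaction test, 3 mice, where 0.917% of 9375 genes were higher and 0.597% lower in cluster 10). The submitters made the clusters, and if they used these counts this test is not independent of them.

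B cells of the same libraries, which make no digestive enzymes, also held enzyme UMIs, at 49406, 27952, 47686 and 250512 CPM summed over the cells of the 4 mice in turn. The summed level of cluster 10 was above that of B cells in 3 mice and below it in 4 wk mouse 2. The median per cell in that mouse was 90 enzyme UMIs in B cells and 451 in left-out cells of cluster 10. Their median depths there were 2952 and 6819 UMIs. Over all mice the mean was 505.3 enzyme UMIs per B cell beside a median of 73. At 1000 UMIs per cell the median was 19 enzyme UMIs in B cells, 5 in subtyped Tuft cells, 8 in left-out cells of cluster 7 and 80 in left-out cells of cluster 10. Acinar cells had a median of 503. Unthinned, the medians were 73 enzyme UMIs in B cells, 168.5 in left-out cells of cluster 7 and 848 in those of cluster 10. The median left-out cell of cluster 10 was therefore above the median B cell on both scales, while that of cluster 7 was below it at equal depth and above it in UMIs per cell, at median depths of 25858.5 UMIs in cluster 7 and 3428 in B cells. The part of free RNA in the enzyme counts was not tested further.

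Reg proteins, secreted lectins that acinar cells make in injury, were also higher: 5 of 6 tested genes were higher and 0 lower, against 3.54% and 2.26% of all genes. The count was 3 of 4 without 2 wk mouse 2 and 3 of 6 without the mouse as a block. Reg1 stood at 6284, 9109, 9302 and 7271 CPM in left-out and 1252, 697, 677 and 849 CPM in subtyped cells (log2 difference 3.57 ± 0.20 SE, edgeR adjusted p = 0.0215), with no overlap between the sets. Reg2 was higher by 2.98 ± 0.15 (SE, edgeR adjusted p = 2.53e-13), and within clusters it stood at 481, 1368, 438 and 169 CPM in left-out cells of cluster 10 and at 10.9, 60.4, 11.1 and 6.14 CPM in those of cluster 7. Reg3b reached 1978 CPM in left-out cells of 4 wk mouse 2 against 104, 242 and 246 CPM in the other mice, and 59.2% of its UMIs came from 1 cell (log2 difference 4.52, edgeR adjusted p = 0.335). At 1000 UMIs per cell the median was 10 Reg UMIs in left-out cells of cluster 10, 1 in those of cluster 7 and 3 in B cells, and unthinned it was 90, 25 and 10, so that cluster 7 was below B cells on the first scale and above them on the second. Summed over cells, Reg genes stood at 5898 to 20510 CPM in B cells of the 4 mice, a range that overlapped the 6733 to 9930 CPM of left-out cells. In cluster 7 the sums were 1410, 2595, 5170 and 9977 CPM in left-out and 1388, 840, 794 and 880 CPM in subtyped cells. In cluster 10 they were 10514, 23765, 18139 and 8847 CPM against 1261, 741, 633 and 897 CPM. Within cluster 7, 0 of 3 tested Reg genes were higher (2.7% of all genes), and within cluster 10, 4 of 5 (2.03%).

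Acinar transcription factors were scarcer transcripts, and 3 of 7 were higher, against 3.54% of all genes: Ptf1a, the factor that keeps acinar identity, its partner Rbpjl, and Bhlha15 (Mist1), which builds the secretory apparatus. Rbpjl stood at 36.3, 69.7, 17.9 and 46.3 CPM in left-out and 14.8, 20.5, 10.8 and 11.1 CPM in subtyped cells (log2 difference 1.68 ± 0.23 SE, edgeR adjusted p = 1.96e-05). Bhlha15 was higher by 2.87 ± 0.46 (SE, edgeR adjusted p = 0.000175), found in 25 left-out cells. Ptf1a was found in 11 left-out cells, and 26.3% of its 19 UMIs came from 1 of them. By mouse in turn these were 1, 8, 1 and 1 cells, so each 4-week mouse gave a single cell. It was higher by 2.93 ± 0.68 (SE, edgeR adjusted p = 0.00773). Nr5a2, Gata4, Gata6 and Foxp2 did not pass, with log2 differences from -0.35 to 0.41. Within cluster 7, 0 of 6 tested factors were higher (2.7% of all genes), and within cluster 10, 2 of 6, Rbpjl and Bhlha15 (2.03%). Ptf1a could not be tested within either cluster.

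Immediate early genes, which respond to stress and to tissue dissociation, went opposite ways in the clusters as summed CPM. Their sum was 1840, 3495, 2539 and 3284 CPM in left-out and 1683, 2195, 2079 and 2657 CPM in subtyped cells of cluster 10, higher in 4 of 4 mice. In cluster 7 it was 2864, 4087, 3193 and 2156 CPM against 3793, 4202, 3803 and 3680 CPM, lower in 4 of 4 mice. Within cluster 10, 5 of 11 tested genes were higher (Fosb, Ier2, Junb, Fos and Egr1, with log2 differences from 0.78 to 1.10), against 2.03% of all genes, and within cluster 7 0 of 13 were higher and 1 lower (Jund). The medians per cell did not show the cluster 10 excess. They were 15.5 UMIs in left-out and 28 in subtyped cells of cluster 10, and 2 in both at 1000 UMIs per cell. In cluster 7 they were 81 and 64 UMIs, and 3.5 and 4 at 1000 UMIs. Over both clusters, 0 of 106 left-out cells lay above the 95th percentile of the subtyped cells' share of UMIs. The part of such a response in the cluster 10 results was not tested.

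SPEM genes, which mark mucous neck-type cells, were higher for most of the list: of 12 listed genes 11 were tested, 7 were higher and 0 lower, against 3.54% and 2.26% of all genes, with a median log2 difference of 2.81. The summed SPEM level was 14229, 9280, 14248 and 13402 CPM in left-out cells of the 4 mice in turn and 1013, 1198, 1566 and 1899 CPM in subtyped cells. Gkn3, a gastrokine of mucous neck cells, stood at 5058, 3500, 4132 and 3534 CPM against 126, 186, 281 and 361 CPM (log2 difference 3.84 ± 0.26 SE, edgeR adjusted p = 0.0275). Clu, a secreted chaperone induced in injured epithelium, stood at 2842, 3089, 3162 and 4089 CPM against 404, 570, 439 and 664 CPM (2.67 ± 0.08 SE, edgeR adjusted p = 4.31e-18). Left-out cells of all 4 mice were above subtyped cells of all 4 mice for both genes. Tff2 (2.59), Pgc (3.28), Cblif (2.81), Aqp5 (4.26) and Wfdc2 (1.62) also passed on the log2 scale. Muc6, the gland mucin, stood at 404, 614, 563 and 260 CPM against 7.39, 41.2, 38.3 and 55.9 CPM without passing (edgeR adjusted p = 0.159). For Pgc, 37.9% of the left-out UMIs came from 1 cell.

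The summed SPEM excess was larger in cluster 7. There the list reached 30873, 12378, 19318 and 18510 CPM in left-out and 1068, 1101, 1508 and 1672 CPM in subtyped cells (log2 ratio 3.87 ± 0.66, SD, n = 4 mice). In cluster 10 it reached 2407, 3438, 4930 and 8858 CPM against 936, 1452, 1614 and 2090 CPM (1.58 ± 0.37, SD, n = 4 mice). Within cluster 7, 5 of 11 tested SPEM genes were higher (2.7% of all genes), and within cluster 10, 7 of 8 (2.03%). Gene by gene, the interaction test called 2 of 11 SPEM genes, Clu and Pgc, as less raised in cluster 10, and 3 of the 11 were fitted the other way. At 1000 UMIs per cell the medians were 7 SPEM UMIs in left-out cells of cluster 7 and 6 in those of cluster 10, against 1 in subtyped and 2 in B cells. Unthinned, the mean was 447.7 SPEM UMIs per cell in cluster 7 beside a median of 194, and 67.4 beside 58.5 in cluster 10. Summed over cells, B cells stood at 1439, 5373, 2290 and 5114 SPEM CPM in the 4 mice in turn, so that cluster 10 was above them in 3 mice and below in 2 wk mouse 2. For comparison, the median at 1000 UMIs per cell was 76 in MucinDuctal cells and 18.5 in the MucinDuctalProgenitor subtype, and unthinned it was 1296 and 340.

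**Figure D3:**
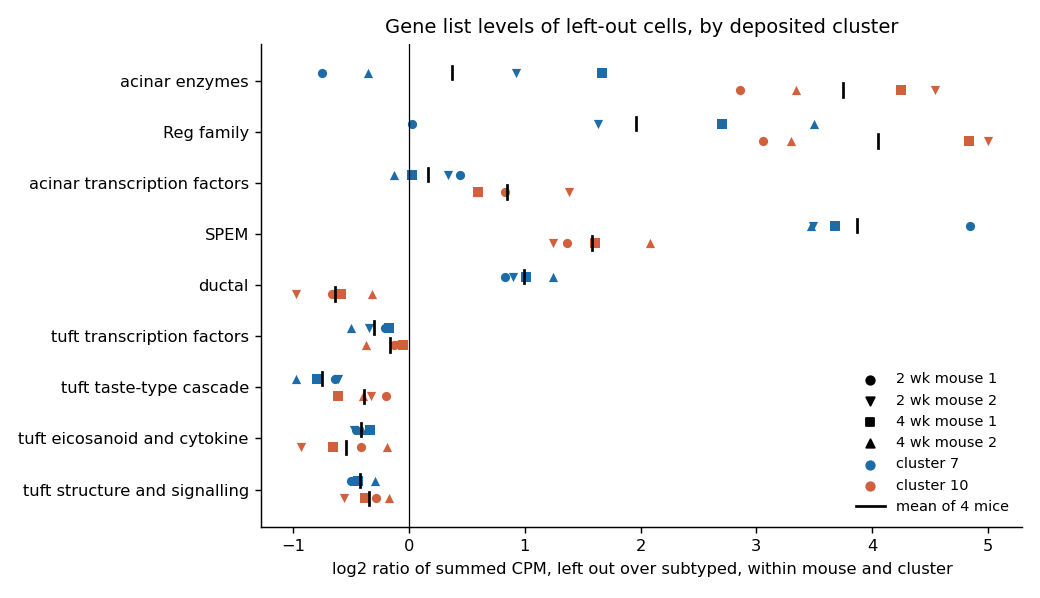
Log2 ratio of summed CPM, left-out over subtyped cells, within each mouse and deposited cluster for 9 gene lists. Points are the 4 mice and bars their means. Enzyme ratios average 3.75 in cluster 10 and 0.37 in cluster 7, SPEM ratios 1.58 and 3.87, and the tuft lists lie below 0 in both clusters.

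Genes named by a fixed rule of size were taken from the same left-out against subtyped test, so they add no independent evidence to it. Cldn2, a tight junction protein that forms cation pores, stood at 141, 140, 62.8 and 89.7 CPM in left-out and 1.34, 6.68, 2.53 and 2.26 CPM in subtyped cells (log2 difference 4.61 ± 0.21 SE, edgeR adjusted p = 1.23e-14). It was present in 38 of 106 left-out cells, at 339, 204, 91.4 and 172 CPM in those of cluster 7 and 0, 21, 10.2 and 16.4 CPM in those of cluster 10. Agr2, a chaperone of mucin-making cells, stood at 563, 475, 385 and 454 CPM in 2 wk mouse 1, 4 wk mouse 1, 2 wk mouse 2 and 4 wk mouse 2, against 8.73, 22.4, 37.8 and 49.9 CPM in subtyped cells of the same mice (3.61 ± 0.27 SE, edgeR adjusted p = 0.00541). The incretin receptor Glp1r (4.39), the Kit ligand Kitl (3.89), Vsig1 (3.59), the chemokine Cxcl17 (3.45) and the Golgi protein Golm1 (3.32) were also higher on the log2 scale, and these, with Cldn2, Aqp5, Gkn3 and Agr2, are highest in MucinDuctal cells. Serpina6 (3.67), Reg1, Reg3d (3.34) and Igf1 (3.31) are highest in Acinar.Prolif cells, and Serpina6 and Igf1 passed within cluster 10. Ly6a (3.33), known as Sca-1, was found in 17 left-out cells, with 42.5% of its UMIs in 1 of them.

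Ductal genes differed in both directions. Over all left-out cells 3 of 12 tested were higher (Car2, Slc4a4 and Sorbs2) and 1 lower (Epcam), against 3.54% and 2.26% of all genes. In cluster 7, 3 of 12 were higher and 0 lower. In cluster 10, 2 of 8 were higher, Spp1 (osteopontin, log2 difference 1.92, edgeR adjusted p = 9.32e-08) and the keratin gene Krt19 (2.37, edgeR adjusted p = 0.0119), 1 was lower (Epcam), and the fitted differences of the 8 lay 4 above and 4 below 0. Car2, a carbonic anhydrase of duct cells, stood at 623, 140, 150 and 393 CPM in left-out and 69.2, 56.5, 74.3 and 132 CPM in subtyped cells of cluster 7 (log2 difference 1.32, edgeR adjusted p = 1.08e-06), and at 124, 33, 71.2 and 153 against 62.7, 59.2, 121 and 147 CPM in cluster 10 (-0.02, edgeR adjusted p = 0.99). The epithelial adhesion gene Epcam was lower over all left-out cells (-0.33 ± 0.07 SE, edgeR adjusted p = 0.00322) and within cluster 10 (-0.81, edgeR adjusted p = 0.0001), and in cluster 7 its log2 difference was 0.04 (edgeR adjusted p = 0.898). The summed ductal list was higher in 4 of 4 mice in cluster 7 (log2 ratio 0.99 ± 0.18, SD) and lower in 4 of 4 in cluster 10 (-0.64 ± 0.27, SD).

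UMIs of the enteroendocrine list were found in 80.2% of left-out and 75% of subtyped cells, and 6 of 15 tested genes were higher and 1 lower (Cpe), against 3.54% and 2.26% of all genes. The higher genes were found in few cells. Neurog3, the factor that commits endocrine precursors, stood at 0, 57.2, 66.4 and 2.89 CPM in left-out cells and passed (log2 difference 4.04 ± 0.32 SE, edgeR adjusted p = 8.52e-10), but it was found in 5 of 106 cells and 38.7% of its UMIs came from 1 of them. Scg2 was found in 1 cell, Pax6 in 2, Pcsk1n in 4, Neurod1 in 7 and Insm1 in 13.

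UMIs of the hormone list were found in 81.1% of left-out and 82.7% of subtyped cells, at a median of 2 UMIs per cell in both. The list stood at 281.5, 218, 11965 and 237 CPM in left-out cells of the 4 mice in turn and 1575, 829, 4077 and 247 CPM in subtyped cells, so that left-out cells were lower in 3 mice and higher in 4 wk mouse 1. The subtyped sums include the cells named Ppy+ and Delta, but cells named Tuft-2 were also high in 2 mice. In 2 wk mouse 2, Tuft-1, Tuft-2 and Tuft-3 cells stood at 46.4, 178 and 735 CPM against 829 CPM for all subtyped cells. Tuft-2 cells stood at 3113 CPM in 2 wk mouse 1 and 3772 CPM in 4 wk mouse 1, where all subtyped cells stood at 1575 and 4077 CPM. Within cluster 10, where 2.03% of all genes were higher, 2 of 5 tested hormone genes were higher, those of peptide YY (Pyy, 2.02, edgeR adjusted p = 0.0366) and somatostatin (Sst, 1.87, edgeR adjusted p = 0.0382), and 1 was lower, the secretin gene Sct. Sst rested on 23 UMIs in 12 of the 60 left-out cells of cluster 10, and 8 of these UMIs were in 1 cell. Ghrl, the ghrelin gene, had a UMI in 45.3% of left-out, 32.5% of subtyped and 39.3% of B cells. In 4 wk mouse 1, 1 cell of cluster 7 with 57617 UMIs held 2981 UMIs of the pancreatic polypeptide gene Ppy and 3373 of the peptide YY gene Pyy, together with 9 UMIs of Pou2f3, 46 of Dclk1 and 1944 of the tuft lists. That cell held 93.5% of all hormone UMIs of the left-out cells, and the next cell held 53. No cell named Tuft-1, Tuft-2 or Tuft-3 held more than 2 Ppy UMIs, and the subtyped cell with the most, 3134, was among the 13 with another subtype name. Other hormone genes did reach high counts in single cells named Tuft-2 or Tuft-3. The highest counts per cell were 3232 Ghrl and 250 Sst UMIs among Tuft-2 cells and 189 Ghrl UMIs among Tuft-3 cells.

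The tuft program was present but took a smaller share of the RNA. The 4 tuft lists together stood at 41933, 39754, 37754 and 46514 CPM in left-out cells of the 4 mice in turn and 53200, 55784, 52281 and 57025 CPM in subtyped cells, without overlap, against a highest value of 2300 CPM in B cells. Their log2 ratio was -0.40 ± 0.10 (SD, n = 4 mice). Tuft-1 cells alone were nearer: their structure and signalling list stood at 28993, 28610, 26872 and 24880 CPM. Left-out cells stood at 28457, 27005, 24973 and 32296 CPM, an overlapping range. As means of the 4 mice, the eicosanoid and cytokine list was at 4378 CPM in Tuft-1 and 5319 in left-out cells. The transcription factors (3901 and 2985 CPM) and the taste-type cascade (6968 and 5001 CPM) were higher in Tuft-1 cells. Of 55 tuft genes tested, 29 were lower and 0 higher, against 2.26% and 3.54% of all genes, with a median log2 difference of -0.39. This count fell to 5 without 4 wk mouse 1, 11 without 2 wk mouse 2, 15 with DESeq2, 6 of 47 after thinning and 2 without the mouse as a block, and 0 were higher in each of these settings.

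Transcription factors of tuft cells were lower for 4 of 10 genes, against 2.26% of all genes, which is also the share to set beside the counts of the other tuft lists that follow. Pou2f3 stood at 227, 163, 154 and 147 CPM in left-out and 226, 230, 218 and 207 CPM in subtyped cells, so that 2 wk mouse 1, which was not in the fit, showed no difference and the other mice were lower (-0.46 ± 0.11 SE, edgeR adjusted p = 0.00975). Its difference was -0.75 within cluster 7 (edgeR adjusted p = 0.00143) and 0.01 within cluster 10 (edgeR adjusted p = 0.99), where Hmx3 was the 1 factor of 10 that was lower. Spib (-0.39), Hmx2 (-0.49) and Hmx3 (-0.57) were also lower on the log2 scale. Sox4, a factor of immature tuft cells, varied between mice at 291, 729, 635 and 162 CPM in left-out and 476, 779, 371 and 361 CPM in subtyped cells (-0.04, edgeR adjusted p = 0.997).

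The taste-type cascade was lower for 4 of 11 genes. Gnat3, the gustducin subunit, stood at 109, 423, 134 and 89.7 CPM in left-out and 373, 646, 340 and 306 CPM in subtyped cells (-1.09 ± 0.18 SE, edgeR adjusted p = 0.00492). Within cluster 7 its difference was -1.60 (edgeR adjusted p = 0.0683) and within cluster 10 it turned to 0.50 (edgeR adjusted p = 0.764), and cluster 10 held 60 of 106 left-out but 476 of 1174 subtyped cells. Rgs13, a brake on G protein signals, stood at 2334, 2769, 2052 and 2244 CPM against 3262, 4196, 4292 and 3948 CPM, with no overlap (-0.79 ± 0.07 SE, edgeR adjusted p = 7.42e-09). Gng13 (-0.58) and the channel gene Trpm5 (-0.35) were lower on the log2 scale, while Plcb2, Plcg2, Itpr2 and Gnb1 did not pass, with differences from -0.37 to -0.01. Itpr3, Tas1r3 and Trpm4 did not pass either. Of the 11 tested genes, 2 were fitted above 0, the higher at 0.375, and 0 were called higher.

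Genes of eicosanoid and cytokine output were lower for 6 of 10: the leukotriene pathway genes Alox5ap (-0.47) and Ltc4s (-0.44), the prostaglandin enzymes Ptgs1 (-0.57) and Hpgds (-0.48), the cytokine Il25 (-0.44) and the receptor chain Il13ra1 (-0.33). Alox5ap stood at 1989, 1607, 1962 and 2574 CPM in left-out and 3024, 2574, 2864 and 3182 CPM in subtyped cells (edgeR adjusted p = 8.21e-05), and left-out cells were lower within each mouse. Structure and signalling genes were lower for 15 of 24. Dclk1 stood at 1330, 1155, 1255 and 1247 CPM against 1455, 1387, 1748 and 1525 CPM (-0.31 ± 0.07 SE, edgeR adjusted p = 0.0114), the actin bundler gene Avil was lower by 0.45 and Espn by 0.58 on the log2 scale, and Kctd12 differed by -0.72 ± 0.09 (SE, edgeR adjusted p = 4.67e-06). Named by the rule of size, the cytokine-like gene Lect2 (-1.03), the polarity gene Pard6g (-1.01), Lrrn1 (-0.98) and the antiviral enzyme gene Oas1a (-0.96) were lower too and are highest in Tuft cells.

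The direction of the tuft lists depended on the scale in cluster 7. As a share of UMIs they were lower there in 4 of 4 mice (log2 ratio -0.45 ± 0.04, SD), but as UMIs per cell they were higher in 3 of 4 mice (0.16 ± 0.26, SD), since those cells were deeper. In cluster 10 they were lower in 4 of 4 mice on both scales (-0.37 ± 0.15 as a share and -0.58 ± 0.44 as UMIs per cell, SD). Of the tuft genes, 23 of 54 were lower within cluster 7, against 1.41% of all genes, and 4 of 53 within cluster 10, against 0.955%. These counts do not show a difference between the clusters: in the edgeR interaction test 0 of 55 tuft genes were called, 12 had an unadjusted p under 0.05, and the median log2 difference was 0.07.

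**Figure D4:**
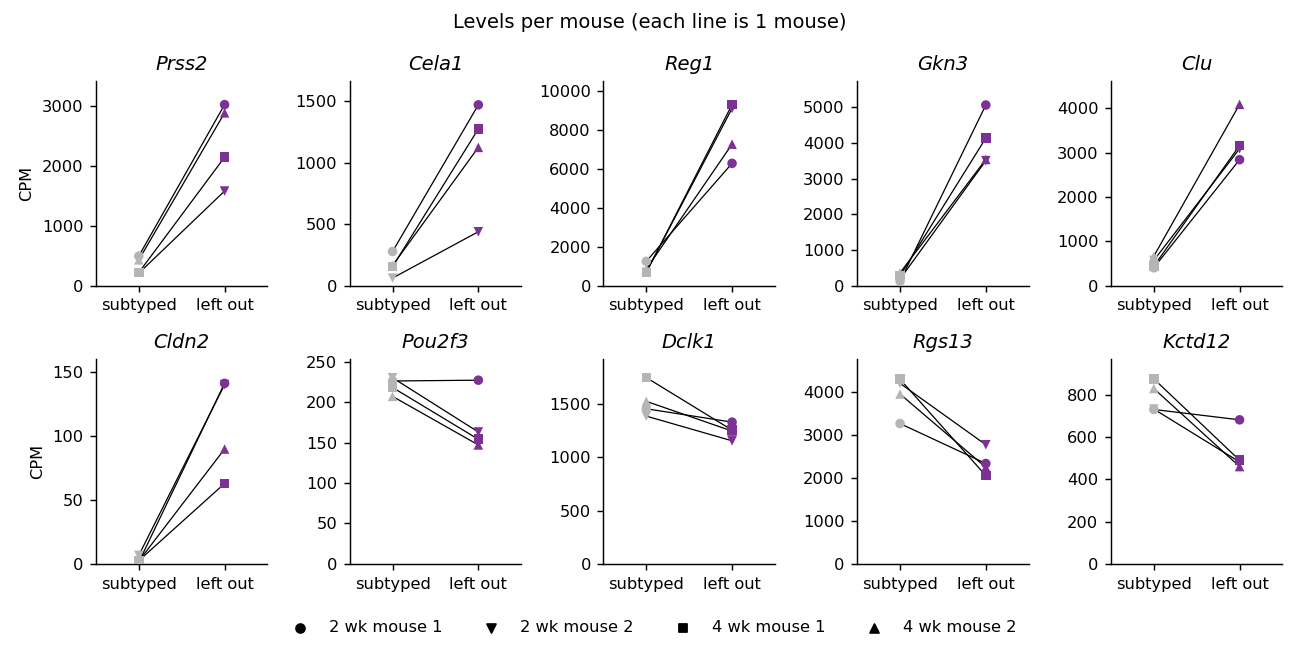
CPM per mouse of 10 named genes in subtyped and left-out Tuft cells, with 1 line per mouse and axes from 0. The upper genes and Cldn2 are several times higher in left-out cells of every mouse, and the tuft genes Pou2f3, Dclk1, Rgs13 and Kctd12 are lower in left-out cells of the 3 mice of the fit.

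Cell by cell, transcripts of other lineages were above the range of most subtyped cells in all but 10 members, for enzymes, SPEM or both. The 95th percentile of the subtyped cells' share of UMIs was taken as a limit for each list, above which 59 of 1174 subtyped cells (5.03%) lie by construction. Above it lay 69 of 106 left-out cells (65.1%) for enzymes, 77 (72.6%) for SPEM, 75 (70.8%) for Reg genes, 19 (17.9%) for ductal genes and 15 (14.2%) for hormones. For the tuft lists together 0 lay above and 29 lay below the 5th percentile. In cluster 10, 59 of 60 cells were above for enzymes and 42 for SPEM, and in cluster 7, 10 of 46 were above for enzymes and 35 for SPEM. All 19 cells above for ductal genes were in cluster 7. Thinned to 1000 UMIs the counts were 70 for enzymes, 71 for SPEM, 63 for Reg genes, 14 for ductal genes and 8 for hormones. Of subtyped cells, 5.03%, 4.77%, 3.75%, 4.09% and 3.75% lay above these thinned limits in turn. Before thinning, 9 of the 15 cells above for hormones held under 5000 UMIs.

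Both enzymes and SPEM were above the limit in 50 left-out cells (47.2%) against 12 subtyped cells (1.02%), and 41 of the 50 were in cluster 10. Enzymes alone were above in 19 cells, 18 of them in cluster 10, with a median depth of 24240 UMIs. SPEM alone was above in 27 cells, 26 of them in cluster 7, with a median depth of 28509 UMIs and a highest of 63350. The 50 cells above for both had a median depth of 9883 UMIs and a lowest of 1006. Neither was above in 10 cells, all in cluster 7, and 7 of these were also within the limits for enteroendocrine and hormone genes, with a median depth of 15363 UMIs. The median share of tuft transcripts in those 7 cells was 37493 CPM.

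**Figure D5:**
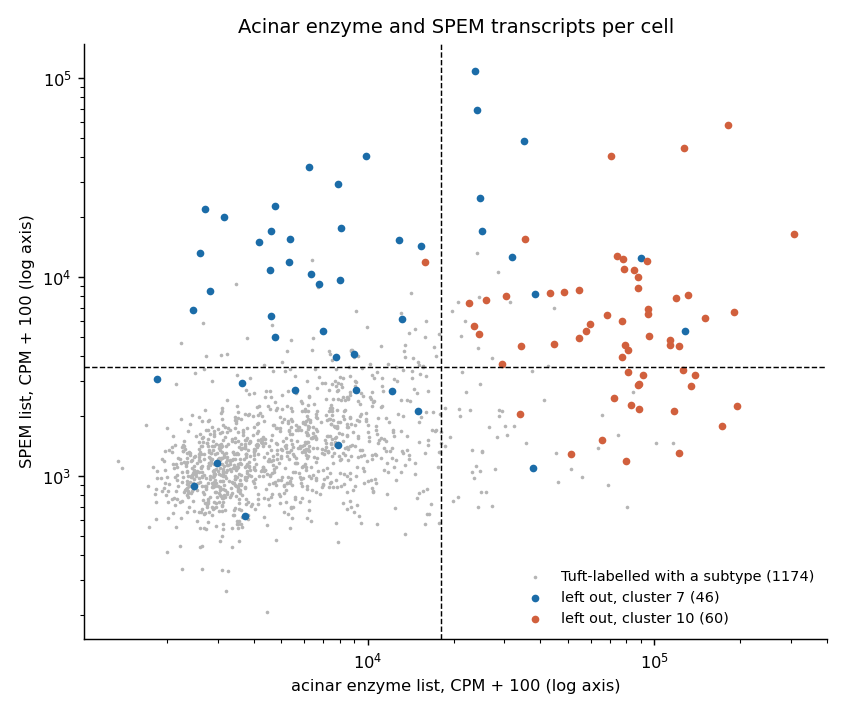
Acinar enzyme against SPEM transcripts per cell (CPM + 100, log axes), with subtyped Tuft cells in grey, left-out cells coloured by deposited cluster and dashed lines at the 95th percentiles of subtyped cells. Of the left-out cells, 50 lie beyond both lines, 19 beyond the enzyme line alone, 27 beyond the SPEM line alone and 10 beyond neither.

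The other transcripts were also counted by depth. Of the 20 cells under 5000 UMIs, 17 were above the limit for enzymes, 19 for SPEM and 18 for Reg genes, with a median of 63 tuft UMIs per cell. Of the 21 cells over 30000 UMIs, 7 were above for enzymes, 17 for SPEM and 10 for Reg genes, with a median of 1607 tuft UMIs. Subtyped cells over 30000 UMIs had a median of 1850 tuft UMIs and 5 of 44 were above for enzymes, 3 for SPEM and 5 for Reg genes. Of the 9 subtyped cells under 5000 UMIs, 0 were above for enzymes, 3 for SPEM and 2 for Reg genes. The enzyme counts followed the cluster at every depth. In cluster 10, 17 of 18 shallow, 38 of 38 middle and 4 of 4 deep cells were above the enzyme limit, and in cluster 7, 0 of 2, 7 of 27 and 3 of 17. The part of doublets, free RNA or cell state in these mixtures was not tested, and no doublet caller was run.

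Markers of stromal and immune cells were mostly low in left-out cells, with exceptions. The endothelial gene Pecam1 was found in 0 of 106 cells, which allows a share of cells with a UMI of up to 2.83%, taking 3 counts of 106 as the limit for a count of 0. The T cell gene Cd3e was found in 1 cell, the fibroblast gene Col1a1 in 5 cells and the macrophage gene C1qa in 8. The 8 T cell genes together lay between 0 and 4.54 CPM over the 4 mice, and the 7 fibroblast genes between 2.89 and 11.4 CPM. Ptprc (CD45), a leukocyte gene that tuft cells also express, was found in 40 of 106 left-out cells (37.7%), 41.7% of subtyped cells and 1.54% of Acinar cells. The macrophage list stood at 36.3, 70.7, 57.4 and 17.4 CPM in left-out and 169, 76.6, 11.2 and 22.2 CPM in subtyped cells, and 17 left-out cells (15 of them in cluster 10) were above the 95th percentile of subtyped cells, 6 after thinning. The mesothelial gene Msln was higher (log2 difference 3.16 ± 0.61 SE, edgeR adjusted p = 0.00891), at 4.54, 18.7, 10.8 and 43.4 CPM against 1.34, 4.75, 0 and 1.64 CPM, and is highest in MucinDuctal cells of the deposited types. The part of these cell types in the results was not tested.

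Between 2 and 4 weeks the left-out cells could not be compared under the minimum of 10 cells per mouse, since 2 wk mouse 1 had 9. With a minimum of 5 cells, 0 of 5913 genes (0%) were called (edgeR, 2 mice against 2), while 181 had an unadjusted p under 0.05, and DESeq2 also called 0 with 36 under 0.05 unadjusted. Leaving out single mice gave between 18 and 80 calls, but each of these fits set 1 mouse against 2, so that the spread came from 1 arm and the lone mouse is assumed to vary like the others. The gene with the smallest p was Crym, at 95.3 and 103 CPM at 2 weeks and 26.9 and 14.5 CPM at 4 weeks (edgeR adjusted p = 0.628). Its subtyped cells stood at 106, 118, 81.3 and 62.6 CPM.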

How the data were processed

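Per the submitters' processing notes, Cell Ranger 4.0.0, Seurat 3.2.3 and the mm10 genome were used. The deposited values are raw UMI counts per gene and cell (32288 features). The smallest deposited cell held 1000 UMIs. Type names, cluster numbers and subtype names are the authors' deposited labels, and how they were assigned is not given in the sources used here. If the clusters were made from these counts, differences between clusters are not independent of them.

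The mouse of each cell was read from the suffix of its name. Differences were tested with edgeR 4.0.16 under R 4.3.3 (quasi-likelihood, robust, TMM, filterByExpr, Benjamini-Hochberg at 0.05), mouse as block because both sets come from the same animals, at least 10 cells per mouse and set. The SE of a log2 difference was computed as its absolute value divided by the square root of the quasi-likelihood F statistic. A difference taken in units of this SE does not rank genes as the p-value does. Fits within clusters needed 5 cells. DESeq2 1.42.0 was an alternative. Thinning drew UMIs without replacement, once, with no cell lost at 1000. Untyped B cells had at least 3 UMIs over Cd79a, Cd79b and Ms4a1. The code was tested on simulated data. Named genes are those of 23 lists and up to 15 per direction past 0.05 with the largest fold, a mean of at least 10 CPM and the same direction in every fitted mouse; Crym is the gene with the smallest p over time. The members and lists were chosen with earlier results of these data known.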

Additional observations from a re-analysis of the deposited data

Results flagged for a closer look

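The left-out against subtyped difference was not the same in the 2 deposited clusters that held Tuft-labelled cells. In an edgeR interaction test over 3 mice and 9375 genes, the difference was higher in cluster 10 than in cluster 7 for 86 genes (0.917%) and lower for 56 genes (0.597%). Of the acinar enzyme list, 17 of 25 tested genes had the higher difference in cluster 10, for example Ctrl by 3.97 and Cpb1 by 3.94 on the log2 scale. Of the Reg family, 3 genes did (Reg2 by 4.63, Reg3a by 4.87 and Reg3d by 5.07), and so did 3 immediate early genes (Fos by 1.95, Egr1 by 1.71 and Atf3 by 3.09). The SPEM genes with a lower difference in cluster 10 were 2 of 11, Pgc (-1.35) and Clu (-2.89), and the ductal genes were 2, Car2 (-1.64) and Epcam (-0.92). If the clusters were made from the same counts, this test is not independent of how the cells were divided. It was chosen after the data had been seen.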

How the results depend on the processing

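Against 593 called genes (362 higher, 231 lower), DESeq2 gave 270 (220 and 50), cells thinned to 1000 UMIs 67 (55 and 12), no filter 436 lower, the fit without the replicate block 126 (124 and 2), cluster 7 alone 355 (233 and 122) and cluster 10 alone 200 (136 and 64). Leaving out 1 mouse gave 176 to 990 (153 to 533 higher, 23 to 457 lower). RLE factors, no enzymes in the library, a minimum of 5 cells, named Tuft subtypes alone and cells of at least 5000 UMIs stayed within 1.5 times. The cause of these changes was not tested. Of 106 named or listed genes past the threshold, 93 kept their direction wherever a value was given and 16 were past the threshold in each such setting. Reversed were Gnat3 (0.50), Pou2f3 (0.01), Gng13 (0.08), Il13ra1 (0.15) and Car2 (-0.02) in cluster 10, Ctrl (-0.03), Cpb1 (-0.04), Cel (-0.22), Epcam (0.04), Hsp90b1 (0.09) and Reg2 (-0.28) in cluster 7, and Cpe (0.37) and Irf7 (0.16) after thinning. As UMIs per cell, the tuft lists together had a log2 ratio of -0.26. B cell genes turned to 0.79 after thinning. The UMI difference ranged from -0.0901 to 0.25 without 1 mouse, reversed without 2 wk mouse 1 (-0.0901) and without 4 wk mouse 1 (-0.0866), and was -0.29 in cluster 10. The 4-week minus 2-week difference in share ranged from -0.92 to 4.48 points without 1 mouse, negative without 2 wk mouse 2 (-0.33) and without 4 wk mouse 1 (-0.92). Above the 99th percentile lay 50 cells for enzymes, 50 for SPEM and 58 for Reg genes, and after thinning 63 for Reg genes above the 95th. Other alternatives for the time comparison were not run, since it had no value under the fixed minimum. Of the 593 called genes, 553 had the same direction in both 4-week mice and 591 in 2 wk mouse 2. These are the mice of the fit that made the calls, so such agreement is largely built in and is no independent support. It was not counted in 2 wk mouse 1, which was outside the fit. With 9 to 44 left-out cells per mouse, the number of cells limits the precision of each mouse's value.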
